A study of Mus musculus with 4 samples.

Results

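The RNA of 10 genes of sphingolipid turnover was measured in thioglycollate-elicited peritoneal macrophages from DBA/2J (DBA) and 129S6/SvEv (129) mice. They encode acid sphingomyelinase and its relatives (Smpd1, Smpdl3a, Smpdl3b), ceramide synthases (Cers2, Cers4, Cers5, Cers6), sphingomyelin synthase (Sgms1), acid ceramidase (Asah1) and a sphingosine kinase (Sphk1). The genes were chosen by name with the results of the DBA and 129 comparison already known, and where a gene had several probe sets, the one brightest on average over the arrays was taken. All 10 were found among the 22180 genes measured. The arrays held 4 RNA pools: DBA female, DBA male, 129 female and 129 male. All the mice were wild type, 3 months old and on regular chow, received 1 ml of 4% thioglycollate medium into the peritoneum and were sacrificed 4 days later, and the harvested cells were kept in culture overnight. The submitters' labels give 3 mice per pool, while the paper's methods give a larger number. Material from the mice was pooled before labelling and 1 Affymetrix Mouse Gene 2.0 ST array was used per pool. The spread between mice was therefore not measured, and the female and the male pool served as the 2 samples of a strain.

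Ceramide is the centre of sphingolipid metabolism. It is built on the endoplasmic reticulum when a ceramide synthase attaches a fatty acid to a sphingoid base, is converted to sphingomyelin in the Golgi, and is released again when sphingomyelinases cleave sphingomyelin. Ceramidases break it down to sphingosine, which sphingosine kinases phosphorylate to sphingosine 1-phosphate, a lipid signal for leukocyte movement. Macrophages take up large amounts of membrane lipid from dead cells and lipoproteins, and their lysosomes hold much of this machinery.

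The values are the log2 expression values deposited by the authors. Over the 22180 genes the median log2 value of a pool lay between 7.66 and 7.70. The arrays give no detection calls, and 95% of 1394 olfactory and vomeronasal receptor genes, which macrophages are not known to use, had a mean log2 value below 7.17. All 10 genes lay above this level in all 4 pools. All 15 measured macrophage markers, among them Adgre1, Cd68 and Csf1r, lay above it in at least 1 pool, as did 14196 of all 22180 genes. So did 9 of 11 B cell markers, 7 of 12 T and NK cell markers and 6 of 13 neutrophil markers. The count was 11 of 12 for fibroblast and mesothelial markers and 6 of 8 for mast cell markers. The summed linear level of the macrophage markers was 81756 in DBA females and 77092 in DBA males, against 71340 in 129 females and 69659 in 129 males. The B cell sum was 21467 in DBA females and 13592 in DBA males, against 14439 in 129 females and 13450 in 129 males. The DBA female pool had the highest sum. Gene by gene, both DBA pools were above both 129 pools for 8 of the 11 B cell markers and below them for 2. Cd22, at 8.55 in DBA males against 11.03 and 10.88 in 129 females and males, was 1 of these 2. Both DBA pools were above both 129 pools for 23.0% of all genes and below them for 21.4%. Of the macrophage markers, 10 of 15 were above in this way and 3 below. For T and NK cell markers the counts were 1 and 7 of 12, and for neutrophil markers 5 and 1 of 13. They were 1 and 6 of 12 for fibroblast and mesothelial markers and 1 and 1 of 8 for mast cell markers.

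Smpdl3b and Cers4 differed between the strains by more than 1 log2 unit (as did 1.07% of all genes), in opposite directions, while the other 8 genes differed by at most 0.17. Smpdl3b encodes a sphingomyelinase-like phosphodiesterase that is anchored to the outer cell surface and that is known in mouse macrophages as a brake on toll-like receptor responses. Its log2 values were 11.34 and 11.40 in DBA female and male macrophages, against 9.33 and 8.71 in 129 female and male macrophages. Both DBA pools were above both 129 pools, and the DBA pools lay close together (SD 0.04, n = 2) while the 129 pools were further apart (SD 0.44, n = 2). The log2 difference, DBA minus 129, was 2.35 (standard error 0.21 from the limma fit). On the linear scale the DBA mean was 4.98 times the 129 mean, with ratios of 4.04 between the female and 6.43 between the male pools. In size this difference was number 20 among all genes measured.

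Cers4 encodes a ceramide synthase of the endoplasmic reticulum that prefers long-chain acyl groups. Its log2 values were 8.52 and 8.63 in DBA female and male macrophages, against 10.43 and 10.16 in 129 female and male macrophages. Both DBA pools lay below both 129 pools, and the pools of a strain lay close together (SD 0.08 in DBA and 0.19 in 129, n = 2 each). The log2 difference, DBA minus 129, was -1.72 (standard error 0.13), number 60 in size among all genes, and the linear mean in DBA was 0.303 of that in 129. The DBA to 129 ratio was 0.267 in females and 0.347 in males. The array measures RNA in a mixed harvest, so fewer cells of a type that carries a transcript and less of it per cell cannot be told apart.

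The promoters of these genes are shown because they are the 2 members whose level differed by over 1 log2 unit, and they give the sequence immediately upstream of each start. They are the 250 bases before the annotated start from RefSeq (GRCm38.p6, a C57BL/6J genome, so not the sequence of either strain studied), at chr4:132757172-132757421 on the minus strand for Smpdl3b and chr8:4493155-4493404 on the plus strand for Cers4. Capitals mark matches to the motifs searched.
Smpdl3b: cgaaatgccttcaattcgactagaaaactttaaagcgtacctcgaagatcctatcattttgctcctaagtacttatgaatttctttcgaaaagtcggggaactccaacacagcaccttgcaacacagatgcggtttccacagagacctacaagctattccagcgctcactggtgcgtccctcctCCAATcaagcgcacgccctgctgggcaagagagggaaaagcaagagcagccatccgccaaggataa
Cers4: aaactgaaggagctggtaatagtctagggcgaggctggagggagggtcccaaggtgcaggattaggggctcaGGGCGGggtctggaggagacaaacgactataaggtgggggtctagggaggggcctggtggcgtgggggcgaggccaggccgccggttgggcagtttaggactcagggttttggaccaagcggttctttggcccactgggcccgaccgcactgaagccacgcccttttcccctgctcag
The motifs searched on both strands were the TATA box (TATAAA), the CCAAT box (CCAAT), the GC box (GGGCGG), the E-box (CACGTG) and a PU.1 core (GAGGAA), and no matches overlapped in these windows. The Smpdl3b window held 1 match, a CCAAT box 66 to 62 bases before the start, a motif present in 33.8% of 32851 promoter windows of the same length. The Cers4 window held 1 match, a GC box 178 to 173 bases before the start, a motif present in 32.7% of them. GC content was 48.8% for Smpdl3b and 63.2% for Cers4, against a median of 52.4% over all windows. Promoter windows were found for 8 of the 10 genes.

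**Figure D1:**
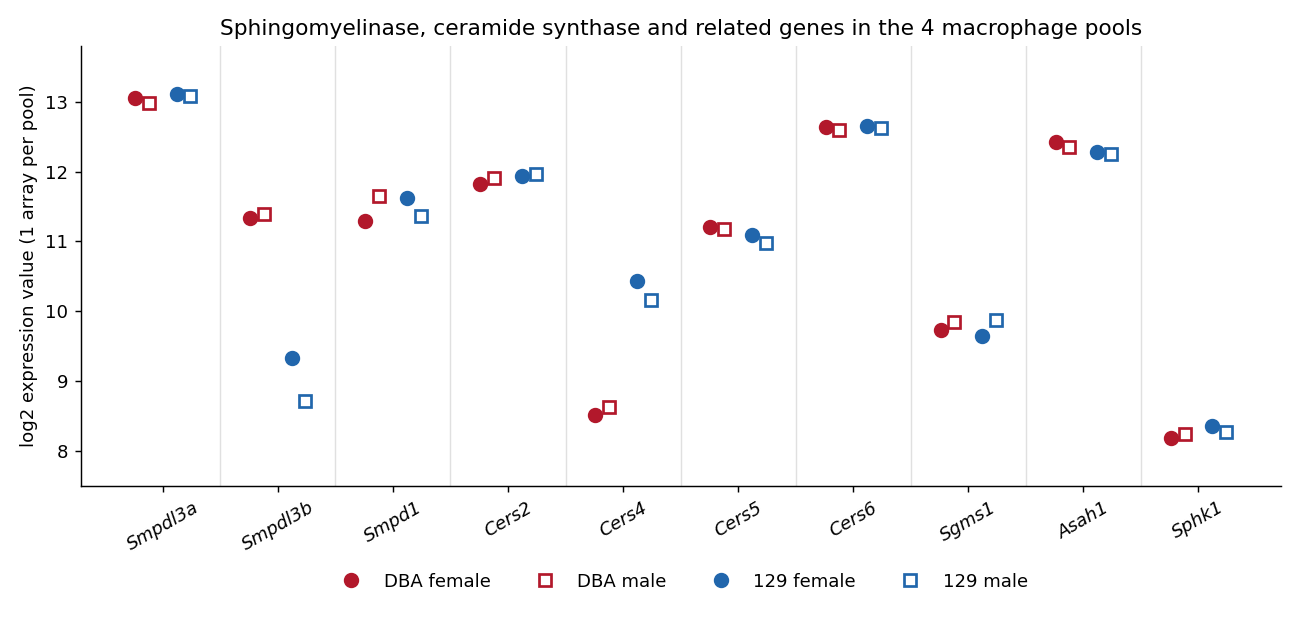
Log2 expression values (vertical axis) of the 10 genes in each pool, 1 array per pool, with DBA in red to the left of 129 in blue, females as filled circles and males as open squares. Smpdl3b stood at 11.34 and 11.40 in DBA, against 9.33 and 8.71 in 129, and Cers4 at 8.52 and 8.63 in DBA, against 10.43 and 10.16 in 129, while the pools of the other genes lay close together.

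Neither Smpdl3a nor Smpd1, the relatives of Smpdl3b, shared its difference. Smpdl3a, whose product is a secreted phosphodiesterase of the same family, had log2 values of 13.05 and 12.99 in DBA females and males, against 13.11 and 13.08 in 129. Its difference was -0.08 (standard error 0.11), so that the strains differed by 2.35 and -0.08 log2 units in the members of this pair. Smpd1 encodes lysosomal acid sphingomyelinase, the enzyme lacking in Niemann-Pick disease types A and B. It had 11.30 and 11.65 in DBA females and males, against 11.62 and 11.37 in 129, so the pools of the strains overlapped. The difference was -0.02 (standard error 0.16). Sgms1, which makes sphingomyelin from ceramide in the Golgi, had 9.74 and 9.85 in DBA females and males, against 9.64 and 9.88 in 129, again with overlap and with a difference of 0.03 (standard error 0.13).

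Of the ceramide synthases, Cers4 was the member with a large difference. Cers2, the main synthase of very-long-chain ceramides, had 11.82 and 11.91 in DBA females and males, against 11.94 and 11.96 in 129, a difference of -0.09 (standard error 0.11). Cers5 had 11.21 and 11.18 in DBA females and males, against 11.09 and 10.98 in 129, a difference of 0.17 (standard error 0.11). Cers6 had 12.64 and 12.59 in DBA females and males, against 12.65 and 12.63 in 129, a difference of -0.03 (standard error 0.11). Cers5 and Cers6 both encode synthases that favour palmitoyl ceramides, and the pools of the strains overlapped for Cers6 but not for Cers5.

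Asah1 and Sphk1 act on ceramide and on the sphingosine made from it. Asah1, the lysosomal acid ceramidase, had 12.42 and 12.35 in DBA females and males, against 12.28 and 12.25 in 129, a difference of 0.12 (standard error 0.11). Sphk1, which phosphorylates the sphingosine released from ceramide, had 8.18 and 8.24 in DBA females and males, against 8.36 and 8.27 in 129, a difference of -0.10 (standard error 0.11). The pools of the strains did not overlap for either gene, but both differences were close to 1 standard error in size.

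The pools of the strains were separate for 7 of the 10 genes, with DBA above 129 for Smpdl3b, Cers5 and Asah1 and below it for Smpdl3a, Cers2, Cers4 and Sphk1, and overlapped for 3. Of all genes measured 44.4% had such non-overlapping pools, 23.0% with DBA higher and 21.4% with DBA lower. With limma across all genes, 2 of the 10 passed an adjusted p of 0.05, against 0.374% of all genes, and since the genes were chosen with this comparison known the count is given as a description only. Without the 129 female pool the difference was 2.66 for Smpdl3b and -1.58 for Cers4, and without the 129 male pool 2.04 and -1.85. Whether these genes passed depended on which pool was left out, and the number passing over all genes changed too. With all 41345 probe sets of the array in 1 test none passed (limma, 3471 at an unadjusted p under 0.05), so Smpdl3b and Cers4 did not either. The median log2 difference of the 10 genes was -0.03, against 0.00 over all genes, and their median absolute difference was 0.10, against 0.13. For the 8 genes other than Smpdl3b and Cers4, the 95% intervals of the limma fit ran no lower than -0.43 (Smpd1) and no higher than 0.44 (Cers5).

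**Figure D2:**
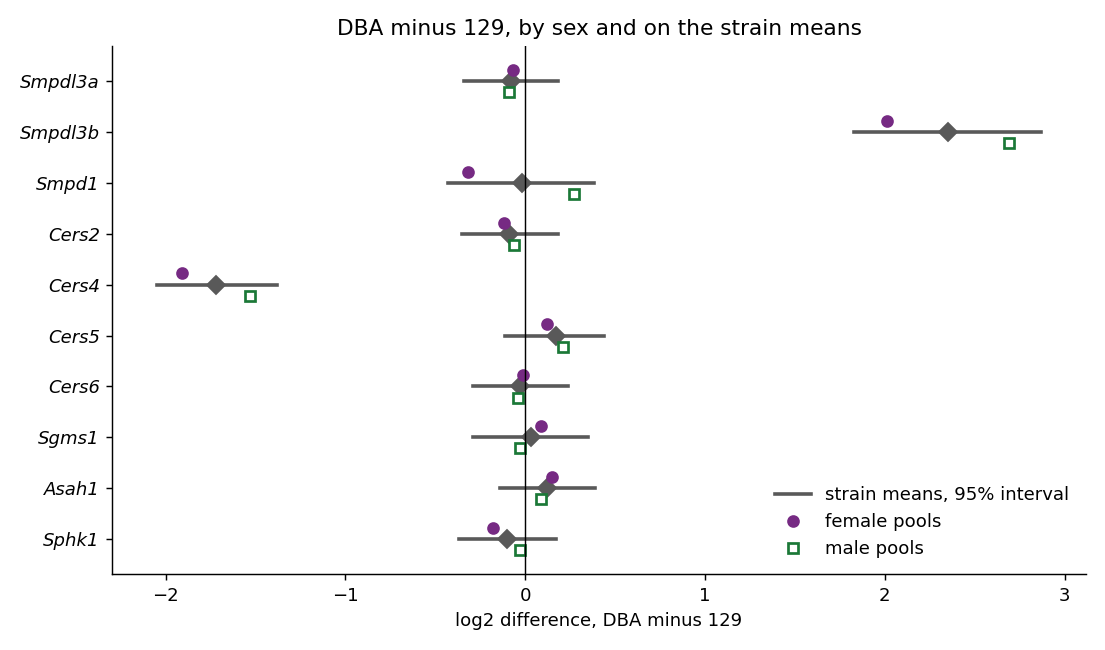
Log2 difference, DBA minus 129 (horizontal axis), for each gene: diamonds and lines give the strain means with the 95% interval of the limma fit, filled circles the female pools and open squares the male pools. Smpdl3b stood at 2.01 in females and 2.69 in males and Cers4 at -1.91 and -1.53, while the 8 other genes lay between -0.32 and 0.27 in both sexes.

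Smpdl3a, Smpd1 and Cers2 had a second probe set with lower values. For Smpdl3a it gave 9.03 and 8.96 in DBA females and males, against 8.85 and 8.83 in 129, a difference of 0.16 where the first probe set gave -0.08. For Smpd1 it gave 9.03 and 9.51 in DBA females and males, against 9.24 and 8.98 in 129, a difference of 0.16. For Cers2 it gave 9.37 and 9.10 in DBA females and males, against 9.43 and 10.18 in 129, a difference of -0.57 in which the 129 male pool stood above the other 3. The sign differed between the probe sets of Smpdl3a and of Smpd1, and matched for Cers2. Smpdl3b, Cers4 and the other 5 genes had 1 probe set each, so no second measurement of their difference was at hand. Whether the sequences of DBA and 129 differ under the probes of these genes was not tested.

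The comparison of female with male macrophages was not used in choosing the genes. With limma and strain in the model, none of the 10 genes passed an adjusted p of 0.05 and none had an unadjusted p under 0.05, against 0.018% and 1.73% of all genes. Smpdl3b had the largest difference, female minus male, at 0.28 (standard error 0.20, adjusted p = 1.0, limma, 95% interval -0.23 to 0.80). It came from the 129 pools, where the female value was above the male value by 0.62, while the DBA difference was -0.05. Sgms1 followed at -0.17 (standard error 0.14), with the female pool below the male pool in both strains. The other 8 differences lay between -0.05 and 0.08. For Smpd1 the female pool was below the male pool in DBA (-0.35) and above it in 129 (0.25). An interaction of strain and sex could not be tested, since it leaves no residual degree of freedom.

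Of the other genes of sphingolipid metabolism, 58 of a list of 63 were measured, and none passed an adjusted p of 0.05 between DBA and 129 (limma), where 0.374% of all genes did. At an unadjusted p under 0.05, 5 were higher and 4 were lower in DBA, or 15.5% of the list against 11.5% of all genes (6.44% higher and 5.08% lower). The median log2 difference was -0.01, against 0.00 over all genes, and 53 of the 58 differed by less than 0.5 log2 units. Sptlc1 and Sptlc2, subunits of serine palmitoyltransferase, the first enzyme of the pathway, had differences of 0.15 (standard error 0.16) and 0.01 (standard error 0.11), and Degs1, the desaturase that completes ceramide, one of 0.30 (standard error 0.13, adjusted p = 0.466, limma). All 9 measured genes of the de novo pathway lay between -0.08 and 0.30, 3 of them (Sptlc3, Sptssb and Cers3) below 7.17 in every pool, and the pathway's ORMDL inhibitors between 0.14 and 0.23.

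Sgms2, the sphingomyelin synthase of the plasma membrane, had log2 values of 9.64 and 10.50 in DBA females and males, against 10.89 and 10.68 in 129. Both DBA pools were lower, the female pool by more, with a difference of -0.71 (standard error 0.28, adjusted p = 0.419, limma). Its size depended on which DBA pool was used. It was -0.29 (adjusted p = 0.557) without the DBA female pool and -1.14 (adjusted p = 0.0425) without the DBA male pool, and the adjusted p ran between 0.0425 and 0.821 over its alternatives. Of 12 fibroblast and mesothelial markers, 6 were lower and none higher in DBA at an unadjusted p under 0.05 (limma). Of all genes 5.08% were lower and 6.44% higher at that threshold. The lower markers were Col1a1, Col1a2, Col3a1, Pdgfra, Pdgfrb and Dcn. The rest differed in both directions: Upk3b by 0.61, Lum by 0.22, Krt8 by 0.12, Msln by 0.10, Krt19 by -0.06 and Wt1 by -0.14. The summed linear level of all 12 fibroblast and mesothelial markers was 8015 in DBA females and 10078 in DBA males. It was 12263 in 129 females and 11233 in 129 males. The part of such cells in the Sgms2 values was not tested. Among the remaining sphingomyelinases and ceramidases, Acer3, an alkaline ceramidase, had 11.37 and 11.31 in DBA females and males, against 11.03 and 10.95 in 129, a difference of 0.35 (standard error 0.11, adjusted p = 0.326, limma).

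The sphingosine 1-phosphate receptor gene S1pr1, which guides lymphocytes out of lymphoid organs, had log2 values of 10.36 and 9.83 in DBA females and males, against 9.10 and 8.93 in 129. Both DBA pools were higher, with a difference of 1.08 (standard error 0.20) that did not pass over all genes (adjusted p = 0.149, limma) but did pass when the DBA male pool was left out (1.35, adjusted p = 0.0222). Without the DBA female pool it was 0.81 (adjusted p = 0.134). Over its alternatives the adjusted p ran between 0.0222 and 0.595. Most B cell markers moved with it. Of 11 measured, 7 were higher and 1 was lower in DBA at an unadjusted p under 0.05 (limma), with a median difference of 0.54. At that threshold 6.44% of all genes were higher and 5.08% lower. At the same threshold 7 of 15 macrophage markers were higher and 1 lower, and 4 of 13 neutrophil markers were higher and none lower. The lower B cell marker, Cd22, had 9.68 and 8.55 in DBA females and males, against 11.03 and 10.88 in 129, a difference of -1.84. The B cell receptor component Cd79a had 10.50 and 9.33 in DBA females and males, against 8.76 and 8.58 in 129. The immunoglobulin heavy chain gene Ighm had 12.62 and 11.63 in DBA females and males, against 11.19 and 10.70 in 129, a difference of 1.18. Cd37 and Blnk, the B cell markers with the highest mean over the 4 pools, had differences of -0.02 and -0.25. The part of B cells in the S1pr1 and Smpdl3b values was not tested. S1pr3, another receptor for this lipid, had a difference of -0.32 (standard error 0.11, adjusted p = 0.354), and Sgpl1, the lyase that destroys sphingosine 1-phosphate, one of -0.09 (standard error 0.11).

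Genes that carry ceramide onward to glycolipids held the largest measured difference of the list. A4galt, the synthase of the globoside Gb3, had log2 values of 8.84 and 8.23 in DBA females and males, against 6.79 and 7.07 in 129, where both pools lay below 7.17, the 95th percentile of the olfactory and vomeronasal receptor genes. Set against that level in place of the 129 mean, the DBA mean was at least 2.59-fold higher. The measured difference of 1.61 (standard error 0.22) did not pass over all genes (adjusted p = 0.0746, limma). It did pass when the DBA female pool was left out (1.30, adjusted p = 0.0406), when the DBA male pool was left out (1.91, adjusted p = 0.00925) and with a trended and robust prior (adjusted p = 0.0404), and the adjusted p ran between 0.00925 and 0.326 over its alternatives. St3gal5, which makes the ganglioside GM3, had 10.61 and 10.41 in DBA females and males, against 11.10 and 10.93 in 129, a difference of -0.51 (standard error 0.13, adjusted p = 0.268). B4galt6, a lactosylceramide synthase, differed by 0.29 (standard error 0.11), and Arsa, the lysosomal arylsulfatase that degrades sulfatide, by 0.36 (standard error 0.13). Ugcg, which glucosylates ceramide as the first step of this branch, differed by -0.04 (standard error 0.11), and Cert1, which carries ceramide to the Golgi, by -0.19 (standard error 0.11). Between the sexes none of the 58 genes passed an adjusted p of 0.05 or had an unadjusted p under 0.05 (limma).

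**Figure D3:**
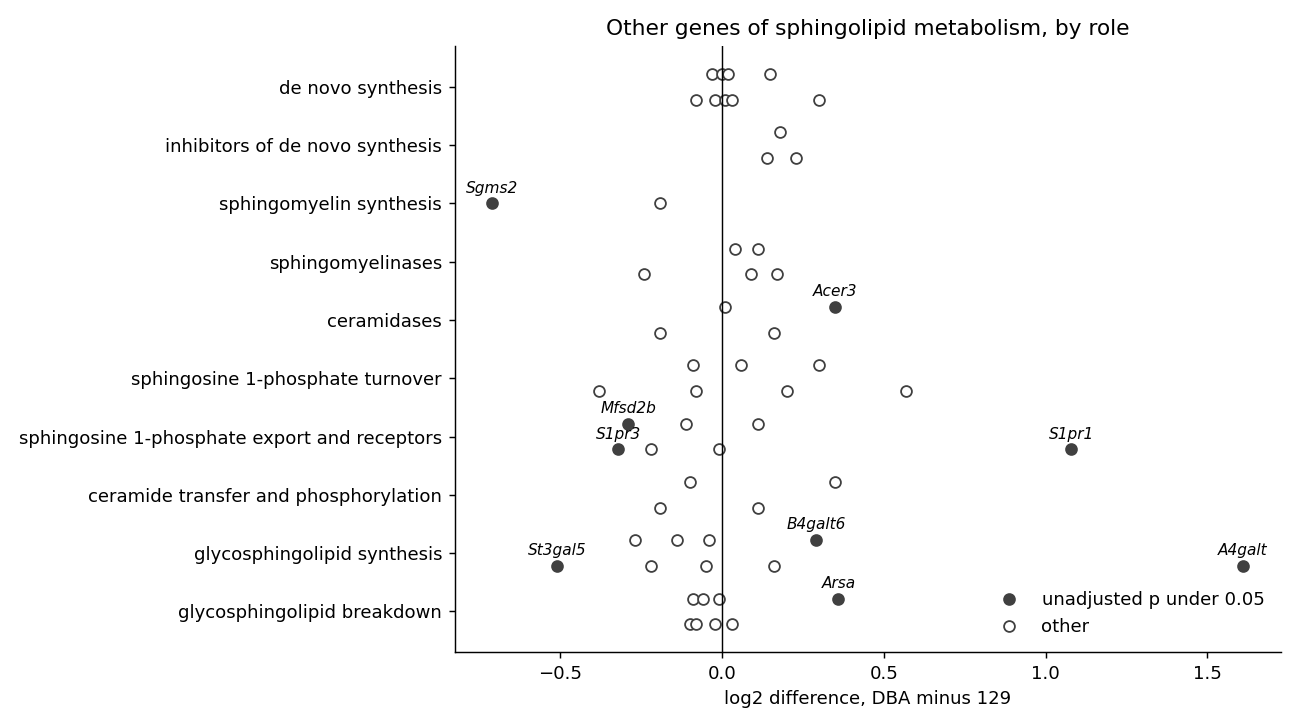
Log2 difference, DBA minus 129 (horizontal axis), of the 58 other measured genes of sphingolipid metabolism, 1 point per gene, in rows by role, with filled points for an unadjusted p under 0.05 and open points for the rest. A4galt at 1.61 and S1pr1 at 1.08 stood furthest to the right and Sgms2 at -0.71 furthest to the left, and 53 of the genes lay within 0.5 of 0.

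The genes next to Smpdl3b on chromosome 4 and next to Cers4 on chromosome 8 did not share their differences in size. Of the 5 measured genes on either side of Smpdl3b none passed an adjusted p of 0.05 in limma (2 had an unadjusted p under 0.05), against 0.374% and 11.5% of all genes. The differences of these neighbours lay between 0.01 and 0.48. The largest was that of Themis2, a signalling protein of B cells and macrophages, at 0.48 (standard error 0.13, adjusted p = 0.302). Xkr8, a phospholipid scramblase, had 0.11, Rpa2, a replication protein, had 0.14, and Ptafr, the receptor for platelet-activating factor, had 0.03. Of the 5 measured genes on either side of Cers4 none passed (limma) and 2 had an unadjusted p under 0.05, with differences between -0.12 and 0.40. The chemokine gene Ccl25 had -0.02, Elavl1, which encodes an RNA-binding protein, had 0.04, and Zfp958 on the other side had 0.28. Gene order was taken from the mouse reference annotation.

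**Figure D4:**
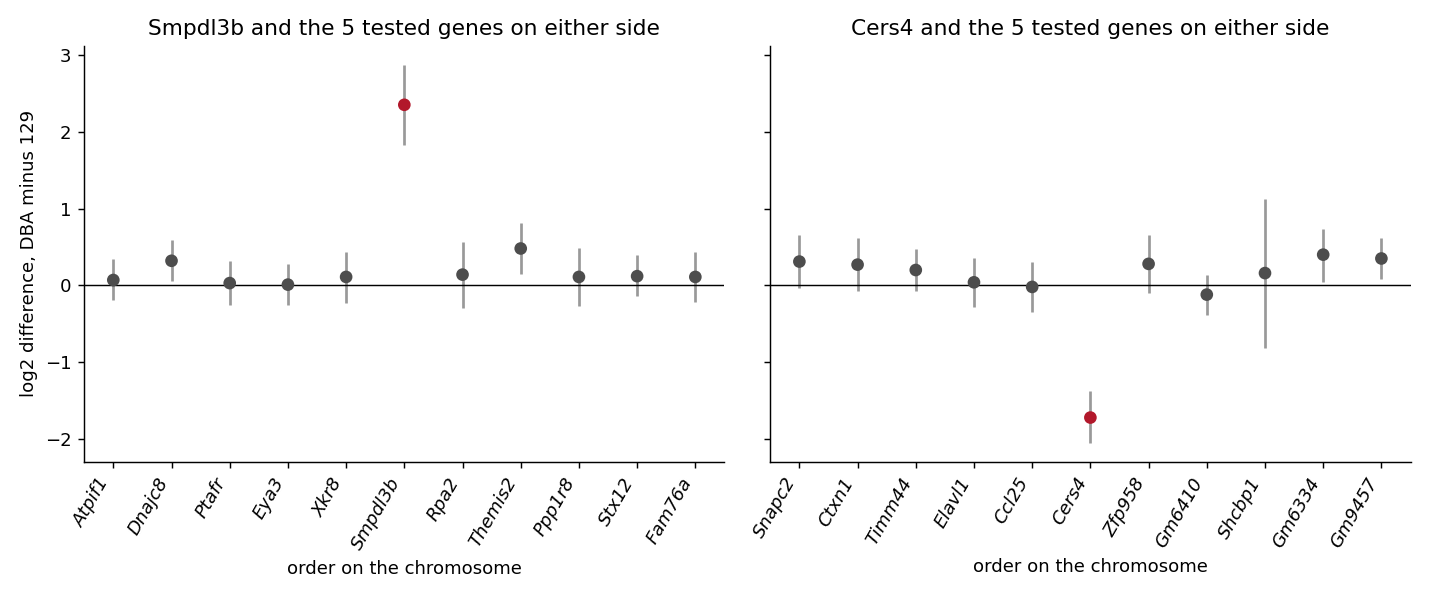
Log2 difference, DBA minus 129 (vertical axis), of Smpdl3b (left) and Cers4 (right) in red and of the 5 measured genes on either side in grey, in the order of the chromosome, with 95% intervals of the limma fit. The 20 neighbours lay between -0.12 and 0.48, against 2.35 for Smpdl3b and -1.72 for Cers4.

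The genes nearest to Smpdl3b in pattern, by the Euclidean distance of mean-centred log2 values over the 4 pools, were Atp6v0e2 (distance 0.27), a subunit of the vacuolar proton pump, Npl (0.29), the sialic acid lyase, and Car6 (0.32), a secreted carbonic anhydrase. Atp6v0e2 had log2 values of 9.51 and 9.83 in DBA females and males, against 7.72 and 7.25 in 129. Npl had 12.76 and 12.59 in DBA females and males, against 10.33 and 9.88 in 129. Car6 had 8.24 and 8.38 in DBA females and males, against 6.51 and 6.01 in 129. Both 129 values of Car6 lay below 7.17. The genes were picked for this pattern, so their values are a description.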

How the data were processed

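Expression was measured on 1 Affymetrix Mouse Gene 2.0 ST array per pool. The log2 values of 41345 probe sets were made by the authors, who used Affymetrix Expression Console, and were analysed as deposited. For its version and its way of summarising and normalizing the probes, nothing is given in the sources used here. All values lay between 1.71 and 14.2. Probe sets with 1 gene symbol (23521) were kept. The reference annotation held the gene ID of 23328 of these, and the brightest probe set on average stood for each of the 22180 genes. Of the other sphingolipid genes, 5 had no probe set with a single symbol and were not analysed here.

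The strains (DBA minus 129) were set against each other by limma 3.58.1 under R 4.3.3, using lmFit and eBayes on strain alone (2 residual degrees of freedom and 3.73 from the prior), as the study averaged the sexes. Females were compared with males with strain in the model (1 residual degree of freedom). Benjamini-Hochberg adjustment ran over all genes, with a threshold of 0.05. For a single gene, the smallest p of an exact permutation test, 2 pools against 2, is 0.333. The procedure was checked on simulated data. The number of arrays limits the precision.

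The members and all gene lists were chosen with earlier results of these data known. Other sphingolipid genes were named when among the 8 with the largest difference at an unadjusted p under 0.05, or as first or branch steps of the pathway. Cd79a, Cd22, Ighm, Sptlc3, Sptssb, Cers3, the neighbouring genes named and the motifs were chosen after the values were seen. Marker lists covered macrophages, B cells, T and NK cells, neutrophils, fibroblasts and mesothelial cells, and mast cells. Alternatives were quantile normalization, a common median, averaging the probe sets of a gene, removal of dim genes, a trended and robust prior, sex as a block, all probe sets tested, sex without strain, ratios of linear means and each pool left out.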

Additional observations from a re-analysis of the deposited data

Results flagged for a closer look

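For 2 of the 10 genes and for 3 of the other sphingolipid genes named, the DBA minus 129 difference had opposite signs in the female and the male pools. With 1 pool per strain and sex this was not tested. For Smpd1 it was -0.32 in females and 0.27 in males, and for Sgms1 0.09 in females and -0.03 in males. For Sptlc1 it was -0.14 in females and 0.43 in males, for Sptlc2 -0.02 in females and 0.05 in males, and for Ugcg -0.14 in females and 0.06 in males.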

How the results depend on the processing

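Smpdl3b kept its direction with log2 differences from 2.04 to 2.66 and Cers4 from -1.85 to -1.58 over 9 alternatives each. The number of the 10 genes past an adjusted p of 0.05 between DBA and 129 ranged from 0 to 2 when a pool was left out, and was 2 with each other alternative fitted on genes. Leaving out a pool leaves its strain with 1, which is assumed to vary like the pools of the other strain. The number of all genes past the test was 83, and was 129 with a trended and robust prior, 47 with sex as a block, 6 to 186 when a pool was left out, and 0, Smpdl3b and Cers4 included, with all probe sets of the array in 1 test (limma, 3471 at an unadjusted p under 0.05). Of the 58 other sphingolipid genes none passed (9 at an unadjusted p under 0.05), 1 passed with a trended and robust prior and 0 to 3 when a pool was left out. Uncalled differences near 0 changed sign when a pool was left out for Sptlc1 (-0.04 to 0.33, lowest without the 129 male pool), Sptlc2 (-0.02 without the 129 male pool, and -0.02 with quantile normalization), Ugcg (-0.11 to 0.03, highest without the DBA female pool), Smpd1 (-0.20 to 0.15) and Sgms1 (-0.09 to 0.15, and -0.09 with quantile normalization), and the cause was not tested. The mean of both probe sets gave 0.04 for Smpdl3a, 0.07 for Smpd1 and -0.33 for Cers2. No gene of either list passed between the sexes under any alternative run (limma). A comparison of the sexes with a pool left out and strain in the model leaves no residual degrees of freedom, so none was run.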

Other observations

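Of the marker lists, 1 gene passed an adjusted p of 0.05 between DBA and 129 (limma), where 0.374% of all genes did. It was the mast cell chymase gene Mcpt4, with log2 values of 7.49 and 7.90 in DBA females and males, against 5.82 and 5.96 in 129. Its log2 difference was 1.80 (standard error 0.17, adjusted p = 0.0245, limma). Both 129 pools lay below 7.17, the 95th percentile of the olfactory and vomeronasal receptor genes, and against that level the DBA mean was at least 1.44-fold higher. The mast cell list as a whole had a median difference of -0.01 over 8 genes, and its summed linear level was 2442 in DBA females and 2547 in DBA males, against 2582 in 129 females and 1939 in 129 males. The median difference was 0.24 for the macrophage markers, -0.12 for the T and NK cell markers, 0.00 for the neutrophil markers and -0.22 for the fibroblast and mesothelial markers.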
